A study of Drosophila melanogaster with 6 samples.

Results

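The JAK/STAT genes of the fly embryo were examined as 8 listed genes out of 9073: the ligand genes upd1 (os, CG5993), upd2 (CG5988) and upd3 (CG33542), the receptor gene dome (CG14226), the kinase gene hop (CG1594), the transcription factor gene Stat92E (CG4257), and the genes of the inhibitors Socs36E (CG15154) and Ptp61F (CG9181). They were chosen by gene identifier, and all 8 passed the minimum mean of 1 normalised count. Messenger RNA came from whole late-blastoderm embryos of the wild-type strain Oregon R, taken just before gastrulation. Every embryo had been injected before cell formation. There were 3 replicates with water and 3 with double-stranded RNA (dsRNA) against the pair-rule genes eve and runt at 1 µg/µl each. About 50 embryos were pooled per replicate. Eggs had been laid over 1 h at 25 °C, and injected embryos developed at 18 °C. The libraries labelled eve runt are called dsRNA libraries here. They hold RNA of whole embryos, so that fewer cells expressing a gene and less RNA per cell cannot be told apart.

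In this pathway a secreted Unpaired (Upd) protein binds the cytokine receptor Domeless, the Janus kinase Hopscotch bound to the receptor phosphorylates Stat92E, and Stat92E enters the nucleus and activates genes. In the blastoderm embryo upd1 is transcribed by the embryo in stripes, whereas mothers load RNA of dome, hop and Stat92E into the egg. The pathway takes part in activating some stripes of pair-rule genes, eve among them, and upd1 also acts as an X-linked signal in sex determination. Socs36E is transcribed in response to the pathway and restrains it, and Ptp61F is a phosphatase that acts against the phosphorylated kinase and Stat92E.

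Across all listed genes the libraries held 23234425 to 49364110 gene reads. Transcripts of run were at 2969 ± 683 normalised counts in water and 1877 ± 127 in dsRNA libraries (SD, n = 3 each), and those of eve were at 2534 ± 734 and 2658 ± 304, so the mean of eve was not lower in the libraries labelled as its knockdown. Its log2 fold change of 0.11 ± 0.23 (SE) turned to −0.16 ± 0.11 without water replicate 2. Water replicate 2 stood apart: in it all 12 genes of a list of maternally loaded RNAs were higher than in both other water libraries, and 11 of 12 genes of a list of later patterning genes were lower than in both. After dsRNA 1 of 9073 genes passed the test (limma, Benjamini-Hochberg adjusted p under 0.05; 0.011% of genes). It was noc, a zinc-finger gene named after its values were seen, at 2350 ± 182 and 5955 ± 426 (SD, n = 3 each; limma adjusted p = 0.0157), and it no longer passed when any library other than water replicate 2 was left out (0.053 to 0.21). Without water replicate 2, 4 genes were called. A fit with the replicate number as a block called 0 genes, with 348 below an unadjusted p of 0.05.

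The receptor, kinase and STAT genes had higher levels than the ligand genes. Levels of different genes were compared as normalised counts per kb of exon. In water-injected embryos dome stood at 4867 ± 255 and Stat92E at 4774 ± 436 normalised counts per kb (SD, n = 3 each). The ranges of this pair overlapped, and both lay above all other members. Next came Ptp61F at 2515 ± 268 and hop at 2179 ± 378 per kb, again with overlapping ranges. The level of upd1 was 949.7 ± 85.7 per kb, below every library of hop, and that of Socs36E was 663 ± 340, whose range overlapped with that of upd1. Far lower came upd2 at 9.0 ± 4.99 and upd3 at 0.683 ± 0.301 per kb, each apart from its neighbours in the order. After dsRNA the order of the 8 means was the same, from dome at 5015 ± 183 to upd3 at 1.81 ± 1.41 per kb (SD, n = 3 each). The range of upd1, 1221 to 2028 per kb, then overlapped with that of hop, 1962 to 2244, and no longer with that of Socs36E, 693 to 1010.

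**Figure D1:**
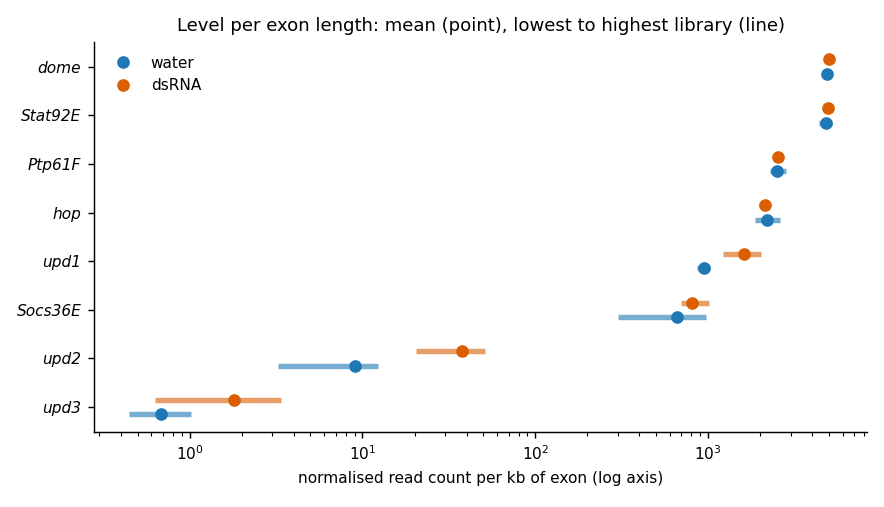
Normalised read counts per kb of annotated exon for the 8 JAK/STAT genes on a log axis, in water (blue) and dsRNA (orange) libraries; points are means of 3 libraries and lines run from the lowest to the highest library. The receptor gene dome and Stat92E lead at 4867 and 4774 per kb in water, while upd2 and upd3 lie at 9.0 and 0.683.

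The ligand gene upd1 was higher in every dsRNA library than in every water library. It lies on the X chromosome (BDGP6 X:18305354-18309291, minus strand) and encodes the founding Unpaired ligand. Listed here and below in the order of replicates 1, 2 and 3, the water libraries gave 3008, 2682 and 3213 normalised counts of upd1, and the dsRNA libraries gave 6337, 5047 and 3817. The water libraries lay close together, and the dsRNA libraries were spread from just above them to nearly double the highest of them. Mean levels were 2968 ± 268 and 5067 ± 1261 (SD, n = 3 each), which is 1.71-fold. The log2 fold change, fitted to log2(normalised count + 1), was 0.74 ± 0.18 (SE; 95% confidence interval 0.31 to 1.18). With limma over all genes the adjusted p was 0.999.

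The second ligand gene, upd2 (BDGP6 X:18240654-18243284, minus strand), whose product overlaps with Upd1 in function, was measured from few reads. The water libraries gave 24.2, 6.43 and 22.8 normalised counts of it, from 32, 5 and 23 reads. The dsRNA libraries gave 101.6, 80.9 and 40.5, from 149, 76 and 29 reads. The groups did not overlap, but the exact 95% Poisson intervals of the lowest dsRNA and the highest water library did. They ran from 27.1 to 58.2 in dsRNA replicate 3 and from 16.5 to 34.1 in water replicate 1. Such an overlap does not test the difference. Summed over libraries and scaled for depth, the ratio of 254 to 60 reads was 4.21, with an exact 95% binomial interval of 3.17 to 5.68. These intervals, like the others below, cover counting error only and not the spread between libraries. Mean levels were 17.8 ± 9.88 and 74.3 ± 31.1 (SD, n = 3 each), or 4.17-fold, and the log2 fold change was 2.10 ± 0.58 (SE; 95% confidence interval 0.71 to 3.48). The adjusted p with limma was 0.999. Without water replicate 2, the library with 5 reads, the log2 fold change was 1.52 ± 0.39.

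The third ligand gene, upd3 (BDGP6 X:18277233-18284596, plus strand), best known from wound and immune responses, was close to the detection limit. The water libraries held 3, 1 and 1 of its reads, and the dsRNA libraries held 11, 3 and 1. Most of the reads thus came from dsRNA replicate 1, and the groups overlapped. Summed over libraries and scaled for depth, the ratio of 15 to 5 reads was 2.99, with an exact 95% binomial interval of 1.03 to 10.5 for counting error. The log2 fold change was 0.84 ± 0.57 (SE; 95% confidence interval −0.53 to 2.21), and 0.37 ± 0.57 without dsRNA replicate 1. A difference in upd3 was therefore not detectable at this depth over the spread between libraries.

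**Figure D2:**
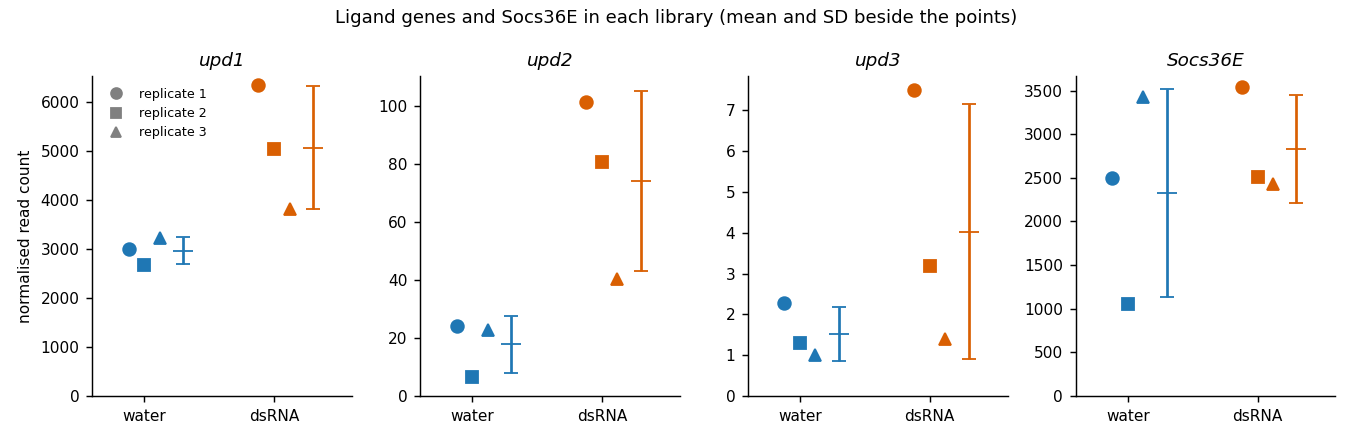
Normalised read counts of upd1, upd2, upd3 and Socs36E in each water (blue) and dsRNA (orange) library, with circles, squares and triangles for replicates 1, 2 and 3 and the mean ± SD beside them; each panel has its own axis from 0. For upd1 and upd2 all dsRNA points lie above all water points, and dsRNA replicate 1 is the highest library in all 4 panels.

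The 3 ligand genes lie in a cluster of 68.6 kb on the X chromosome, with 33948 bp between upd2 and upd3 and 20757 bp between upd3 and upd1. No other listed gene lies inside it. The nearest listed genes outside had similar mean levels in both groups. On the side of upd2, 102870 bp away, ari-1, which encodes a ubiquitin ligase, had mean levels of 7813 ± 209 and 7963 ± 408 in water and dsRNA libraries (SD, n = 3 each), with a log2 difference of 0.03 ± 0.06 (SE). On the side of upd1, 4833 bp away, CG6023 had 9.02 ± 1.81 and 9.26 ± 2.53 normalised counts (SD, n = 3 each) and a log2 fold change of 0.02 ± 0.35 (SE). No exon of upd1, upd2, upd3, dome, hop, Stat92E or Socs36E is overlapped by an exon of another annotated gene. A transposable element on the other strand overlaps 158 bp of Ptp61F exon.

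The receptor, kinase and STAT genes had nearly the same levels in both groups. The receptor gene dome (BDGP6 X:19676061-19683518, minus strand) gave 25109, 22699 and 23373 normalised counts in the water libraries and 24845, 25076 and 23427 in the dsRNA libraries. All 3 dsRNA values lay within the water range, and the log2 fold change was 0.04 ± 0.05 (SE; 95% confidence interval −0.09 to 0.17). The level of Stat92E (BDGP6 3R:20535323-20552311, minus strand) was 24726, 27214 and 22676 in the water libraries and 26385, 27018 and 23907 in the dsRNA libraries. These values also fell within the water range, with a log2 fold change of 0.05 ± 0.08 (SE; 95% confidence interval −0.14 to 0.25). The kinase gene hop (BDGP6 X:11360930-11368098, minus strand) gave 10549, 13112 and 9380 in the water libraries and 9918, 11344 and 11241 in the dsRNA libraries. Its log2 fold change was −0.01 ± 0.13 (SE; 95% confidence interval −0.32 to 0.29), and its highest level was in water replicate 2. For dome, Stat92E and hop the adjusted p with limma was 0.999 each.

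The inhibitor genes gave an interval that was wide for Socs36E and narrow for Ptp61F. Socs36E (BDGP6 2L:18138675-18152417, minus strand), the feedback inhibitor, gave 2496, 1055 and 3421 normalised counts in the water libraries and 3537, 2513 and 2428 in the dsRNA libraries. Water replicate 2 was the lowest of the 6 libraries, and the other 5 libraries of the 2 groups were interleaved. Its log2 fold change was 0.42 ± 0.42 (SE; 95% confidence interval −0.59 to 1.43), and it turned to −0.07 ± 0.20 without water replicate 2. Ptp61F (BDGP6 3L:1342493-1475257, minus strand) gave 14855, 17054 and 13876 in the water libraries and 14912, 16255 and 14900 in the dsRNA libraries. All dsRNA values lay within the water range, with a log2 fold change of 0.01 ± 0.09 (SE; 95% confidence interval −0.19 to 0.22). The adjusted p with limma was 0.999 for both inhibitor genes.

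Of the 8 members 0 passed over all genes (limma), against 0.011% of all genes. An unadjusted limma p under 0.05 was reached by 2 of 8, upd1 and upd2, where 2.27% of all genes reached it and 1.07% did so with a higher level after dsRNA. By unadjusted p upd1 held rank 15 and upd2 rank 32 of the 9073 genes, and by log2 fold change they held ranks 237 and 2. The dsRNA libraries all lay above the water libraries in 2 of 8 members, upd1 and upd2, and in 2.99% of all genes. In 0 of 8 members they all lay below, as in 3.36% of all genes, and 0 of 8 reached an unadjusted p under 0.05 with a lower level, as 1.2% of all genes did. The median log2 fold change of the 8 members was 0.24 and that of all genes was −0.002. These counts describe the 8 genes and do not support a change.

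The ligand genes were also set against the maternally supplied chain, as the ratio of each of upd1 and upd2 to dome, hop and Stat92E within each library. Reads do not separate maternal from embryonic transcripts of a gene at this stage. As a percentage of the dome count, upd1 amounted to 11.98%, 11.8% and 13.7% in the water libraries and to 25.5%, 20.1% and 16.3% in the dsRNA libraries. The dsRNA libraries lay above all water libraries, with a difference of 0.70 on the log2 scale. For upd1 against Stat92E the shares were 12.2%, 9.86% and 14.2% in water and 24.0%, 18.7% and 16.0% after dsRNA, a difference of 0.69 on the log2 scale. Against hop the groups overlapped, because dsRNA replicate 3 at 34.0% lay just below water replicate 3 at 34.3%, and the difference was 0.76 on the log2 scale. For upd2 the shares of the dome count were 0.0963%, 0.0283% and 0.0977% in water and 0.409%, 0.323% and 0.173% after dsRNA, and the log2 differences against dome, hop and Stat92E were 2.05, 2.11 and 2.04. Without water replicate 2, which held the lowest upd2 share, these differences were 1.51, 1.40 and 1.40. The exact two-sided permutation test over the 6 libraries gave p = 0.1 for 5 of the 6 ratios, the smallest p that 3 against 3 libraries allow, and p = 0.2 for upd1 against hop. Adjusted over the 6 ratios by Benjamini-Hochberg, these exact permutation p-values were 0.12 and 0.2. With 3 against 3 libraries this test cannot fall below 0.05, so the ratios stand as a description. The 6 ratios reuse the same counts of upd1 and upd2, so they are not independent of each other.

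**Figure D3:**
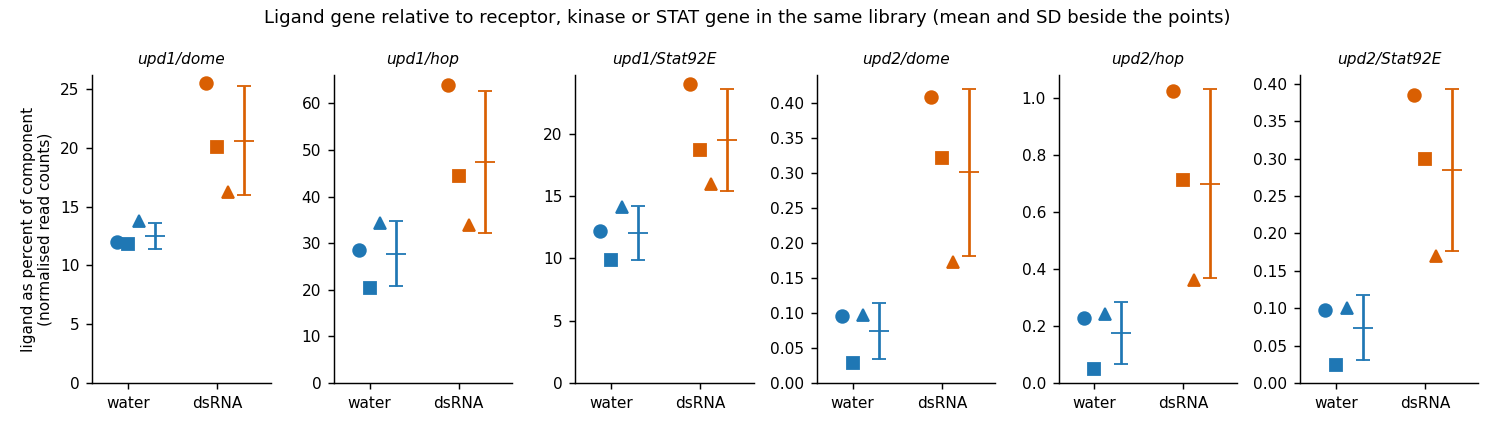
Normalised read count of upd1 or upd2 as a percentage of that of dome, hop or Stat92E in the same library, for water (blue) and dsRNA (orange) libraries, with circles, squares and triangles for replicates 1, 2 and 3 and the mean ± SD beside them; axes start at 0 and differ between panels. The groups are apart in 5 panels and overlap in upd1/hop, where dsRNA replicate 3 lies at 34.0% and water replicate 3 at 34.3%.

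The ligands also differed from each other. Per kb of exon, upd1 exceeded upd2 by a factor of 78.8, 264 and 89.1 in the water libraries and of 39.5, 39.5 and 59.7 in the dsRNA libraries. The factor was lower in each dsRNA library than in each water library, and the value of 264 rests on the 5 upd2 reads of water replicate 2.

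Among themselves the libraries did not place the members alike. In water replicate 2, upd1, upd2, dome and Socs36E had their lowest level of all 6 libraries, whereas hop, Stat92E and Ptp61F were higher than in both other water libraries. The departure was large for upd2 and Socs36E, at −2.19 and −1.19 on the log2 scale from the mean of the 6 libraries, and small for dome, at −0.08. In dsRNA replicate 1, upd1, upd2, upd3 and Socs36E had their highest level, at 0.73, 1.59, 1.37 and 0.56 above that mean. In dsRNA replicate 3, upd1 lay at −0.01 and upd2 at 0.29, the nearest to water among the dsRNA libraries. The spread between libraries of a group was 3.65% to 17.3% of the mean for dome, hop, Stat92E and Ptp61F (coefficient of variation). For the 3 ligand genes and Socs36E it was 9.03% to 77.8%.

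Across libraries, lists that mark stage were in part ordered like the ligand genes. A list made for early zygotic genes of cell formation, 8 of 8 measured, summed to 209141 to 280099 normalised counts in water and to 230736 to 367968 after dsRNA. It also holds Sry-delta, so its sums and medians are not those of early zygotic genes of cell formation alone. Relative to the mean over all libraries, the median log2 level of the list was 0.002, −0.415 and −0.018 in the water libraries and 0.421, 0.224 and −0.243 in the dsRNA libraries. The highest dsRNA library was thus replicate 1 for this list and for upd1 and upd2. In dsRNA replicate 3 the median of the list lay below water replicates 1 and 3, while upd1 and upd2 lay above all water libraries. This sets a median of 8 genes against single genes. The dsRNA libraries lay above all water libraries for 2 of 8 genes of the list, nullo and Sry-delta, beside 2.99% of all genes. They lay below for 0 of 8, beside 3.36% of all genes. All 8 of the list had positive log2 fold changes (median 0.24) and 0 of 8 passed with limma. Its lowest p was that of nullo, which is needed for the blastoderm cell membranes, at 5404 ± 876 and 9399 ± 676 (SD, n = 3 each), with a log2 difference of 0.81 ± 0.12 (SE), and it passed over all genes when water replicate 2 was left out (limma adjusted p = 0.0293). The maternally loaded RNAs, 12 of 12 measured, summed to 79348 to 124795 in water and 69830 to 95108 after dsRNA, with a median log2 fold change of −0.17. The later patterning genes, 12 of 12 measured, summed to 550 to 1901 in water and 1045 to 1653 after dsRNA, with a median of 0.07. Of these, 8 of 12 had a positive log2 fold change. The dsRNA libraries lay above all water libraries for 1 of 12, hh, beside 2.99% of all genes. Its mean levels were 65.9 ± 38.6 and 145 ± 21.3 (SD, n = 3 each), with a log2 fold change of 1.29 ± 0.44 (SE). None of the 12 lay below in that way, beside 3.36% of all genes.

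Pole-cell markers, 8 of 8 measured and none at 0, summed to 10556 to 15944 normalised counts in water and 9384 to 12125 after dsRNA. Water replicate 2 was the highest water library for 7 of 8 of them and for 12 of 12 of the maternally loaded RNAs. In whole embryos these sums do not separate RNA in pole cells from maternal RNA elsewhere. Yolk and amnioserosa genes, 10 of 10 measured and none at 0, summed to 9081 to 14554 and 12505 to 13667. No gene of the maternal, later patterning, pole-cell or yolk and amnioserosa lists passed with limma. The part of embryo stage or of these cell types in the ligand values was not tested.

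**Figure D4:**
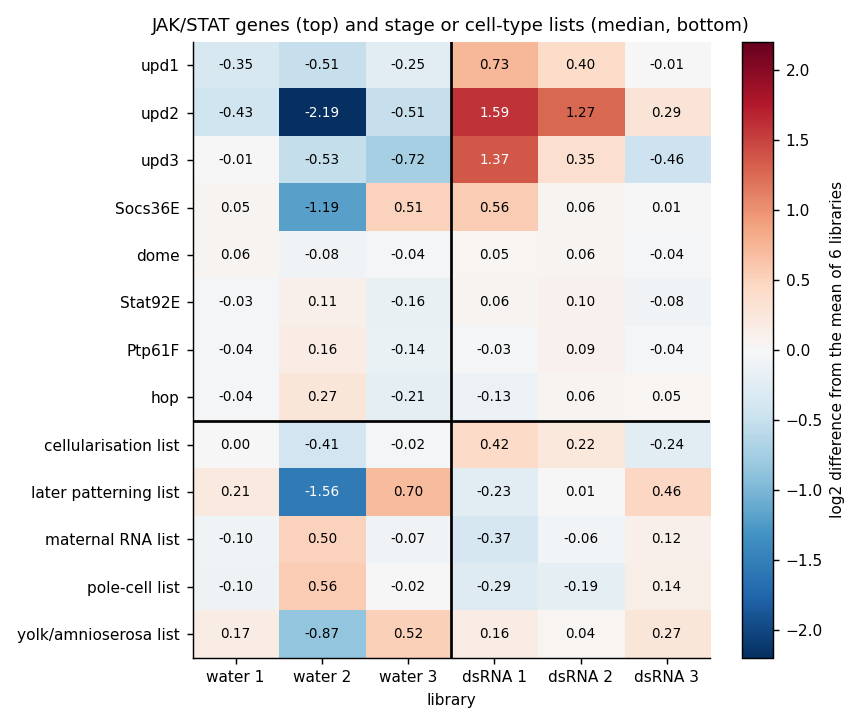
Log2 difference of each JAK/STAT gene (top 8 rows) and of the median of each stage or cell-type list (bottom 5 rows) from the mean of the 6 libraries, one column per library; red is above and blue below that mean. The ligand genes and the cellularisation list are highest in dsRNA replicate 1, and water replicate 2 is the library with upd2 at −2.19 and the later patterning list at −1.56.

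The other regulators of the pathway, a list of 11 genes that were all measured, did not show a difference that passed. With limma 0 of 11 passed in either direction, 0 of 11 had an unadjusted p under 0.05, and 7 of 11 had a positive log2 fold change (median 0.02). The gene next to dome, et, 170 bp away, encodes a receptor-like protein that dampens the pathway. The water libraries gave 35.5, 7.72 and 36.7 normalised counts of it, and the dsRNA libraries gave 35.4, 24.5 and 39.1. The groups overlapped, and its log2 fold change of 0.54 ± 0.61 (SE) turned to −0.15 ± 0.29 without water replicate 2. On the other side of dome, 290 bp away, Ubqn, which encodes a ubiquilin, had a log2 fold change of 0.03 ± 0.05 (SE).

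The repressor gene ken, whose product keeps some Stat92E target genes off, had the most negative value of the list. Its levels were 224, 112 and 227 in the water libraries and 84.5, 78.8 and 177 in the dsRNA libraries, with overlapping groups and a log2 fold change of −0.75 ± 0.42 (SE; 95% confidence interval −1.76 to 0.25). It was lower after dsRNA in all 3 same-numbered pairs. With the replicate number as a block it stood at −0.75 ± 0.26 (SE; limma adjusted p = 0.898 over all genes). It was then the 1 of 11 regulators below an unadjusted limma p of 0.05, beside 348 of all 9073 genes. Without water replicate 2 ken (−1.09 ± 0.35) was again the 1 of 11, beside 329 of 9073 genes. Without dsRNA replicate 3 ken (−1.12 ± 0.37) and Stam were below 0.05, beside 560 of 9073 genes. None of the 11 passed over all genes in these fits. The SOCS genes Socs16D and Socs44A, relatives of Socs36E, had log2 fold changes of −0.07 ± 0.14 and 0.16 ± 0.16 (SE). For apt, which limits Stat92E signalling in the ovary, the value was −0.21 ± 0.17. Su(var)2-10 encodes the fly PIAS protein, a SUMO ligase that restrains Stat92E, and stood at 0.05 ± 0.06. The values of Stam, an endosomal sorting gene, E(bx), a chromatin remodeller subunit, and Lnk, an adaptor gene, were 0.05 ± 0.09, 0.02 ± 0.09 and 0.02 ± 0.07. Those of BRWD3 and mask, both found as positive regulators of the pathway, were 0.005 ± 0.060 and −0.09 ± 0.09. Exons of et, Socs44A and BRWD3 overlap exons of listed genes on the other strand (Zw, Pbp49 and Rrp5), whose reads cannot be separated unless counting used strand.

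**Figure D5:**
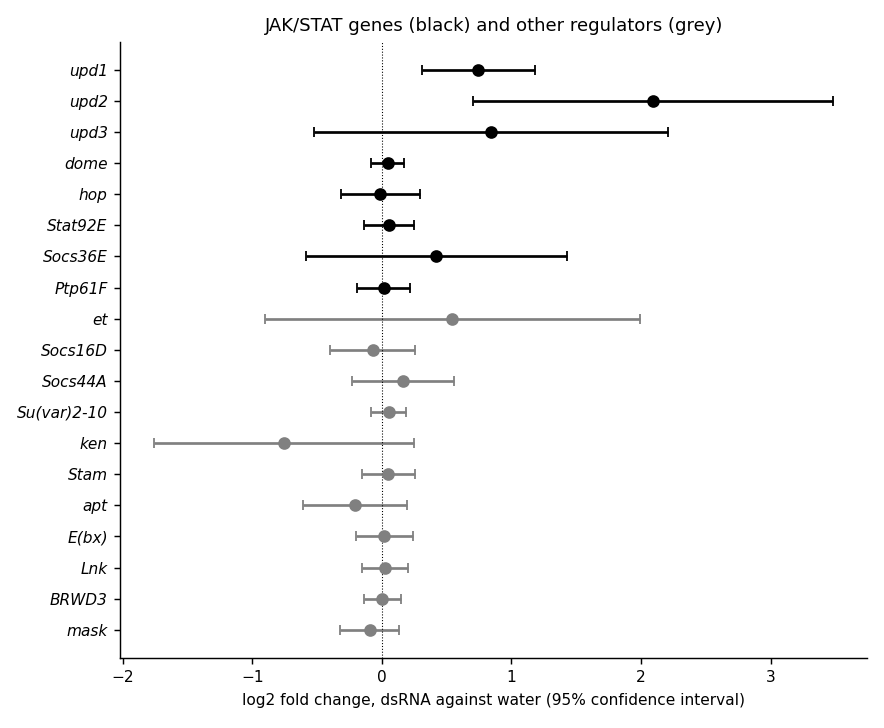
Log2 fold change of dsRNA against water libraries with its 95% confidence interval (limma, 3 libraries per group) for the 8 JAK/STAT genes (black) and 11 other regulators (grey). The intervals of upd1 (0.31 to 1.18) and upd2 (0.71 to 3.48) lie above 0, and those of the other 17 genes include 0.

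Genes reported to respond to or depend on the pathway in various fly tissues showed no common direction. Of 16 listed, 14 were measured and 0 of 14 passed with limma, while 7 of 14 had a positive log2 fold change (median −0.01). An unadjusted p under 0.05 was reached by 4 of 14, beside 2.27% of all genes, and 1 of the 4 is run, a target of the injected dsRNA. The POU-domain gene vvl had 14.4, 6.43 and 47.7 normalised counts in the water libraries and 121.3, 87.3 and 183 in the dsRNA libraries, with no overlap and a log2 fold change of 2.83 ± 0.69 (SE). The injected target run had −0.64 ± 0.18, the pair-rule gene ftz −0.73 ± 0.30 (and −1.10 ± 0.08 without water replicate 2, where it passed with a limma adjusted p = 0.00335), and the border-cell gene slbo −0.98 ± 0.40 (SE) at a mean of 5.64 normalised counts in water and 2.45 after dsRNA. The groups did not overlap for 4 of 14. The dsRNA libraries lay above all water libraries for vvl and for trh, a tracheal transcription factor gene named after its values were seen (136 ± 18 and 179 ± 22 normalised counts, SD, n = 3 each), beside 2.99% of all genes. They lay below for run and slbo, beside 3.36% of all genes.

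In the count of X chromosomes that sets sex, upd1 acts beside other genes, of which 9 were listed and measured. With limma 0 of 9 passed and 3 of 9 had a positive log2 fold change (median −0.07). The dsRNA libraries lay above all water libraries for 1 of 9, dpn, beside 2.99% of all genes. They lay below for 1 of 9, run, beside 3.36%. These 2 of 9 reached an unadjusted limma p under 0.05, beside 2.27% of all genes. An autosomal gene that acts against this signal, dpn had mean levels of 3957 ± 357 and 6210 ± 509 in water and dsRNA libraries (SD, n = 3 each). Its log2 fold change was 0.65 ± 0.09 (SE).

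Over the 6 libraries, the genes with a pattern most like that of upd1 among 6227 genes with a mean of at least 100 normalised counts were scyl, a stress-responsive growth inhibitor (r = 0.995), pyd3, a pyrimidine-degradation gene (r = 0.987), and CG7741 (r = 0.984). They shared the pattern at smaller amplitude, with log2 fold changes of 0.25 ± 0.07, 0.49 ± 0.13 and 0.14 ± 0.08 (SE). Those most like upd2 were CG3457 (r = 0.990) and the head-patterning genes ems (r = 0.988) and oc (r = 0.986), with 0.07 ± 0.06, 1.11 ± 0.31 and 0.87 ± 0.23 (SE). These are Pearson correlations of log2 values, given as a description over libraries that share their group difference. In all, 80 and 94 genes had an r above 0.9 with upd1 and upd2.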

How the data were processed

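Poly(A) RNA was sequenced, and groups and replicate numbers came from the sample titles. HTSeq, DESeq, Bowtie2, TopHat2 (2.0.9) and the build dm3 are named, without settings, per the submitters' processing notes; the annotation release and strand setting are not stated there. What was deposited is a normalised signal per gene: minus the 1 that the authors added, every value was a whole multiple of a library's step (100% within 0.01 read), which gave back the read counts. The 3 rows that name no gene were left out; they held 12.4% to 14.8% (non-unique alignments), 0.72% to 0.75% (ambiguous) and 4.32% to 4.91% (outside genes) of all reads. There were 0 columns of other samples.

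Log2(normalised count + 1) was tested with limma 3.58.1 in R 4.3.3 (trend, robust) over 9073 genes with a minimum mean of 1. That minimum removed none of the 9073 listed genes, which all had reads in at least 4 of the 6 libraries. Shares of all genes are therefore shares of genes detected in this way. P-values were Benjamini-Hochberg adjusted with a threshold of 0.05. The fit was also run on simulated counts with the same dispersion for all genes and no library differences beyond depth. That run therefore does not test the fit against the spread between these libraries. Ratios were tested by exact permutation (Python 3.11.15). Symbols came from RefSeq Release 6 names (9009 of 9073 identifiers matched). Positions and exon lengths are those of the BDGP6 annotation, not of dm3, so levels per kb are approximate. The members, lists and rule for named genes were chosen with earlier results of these data known. The rule took the members, all other regulators, up to 4 genes per remaining list by p, the neighbours of the ligand cluster and of dome, and 3 genes most like upd1 and upd2.

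Pairs of replicates within a group differed by more than sampling noise (chi-square per degree of freedom 16.5 to 87.7). About 50 embryos were pooled per replicate, but nothing in the labels says that these pools were injected separately. The p-values therefore measure only the spread between these libraries, which may be partly technical. Deviations from the group means of same-numbered libraries correlated at 0.24, 0.37 and 0.22 across genes, each over a threshold of 0.1. Those of differently numbered libraries correlated at −0.38 to 0.11, so water replicate 3 with dsRNA replicate 1 also passed. Deviations within a group cancel out, so these values constrain each other and do not establish pairs. The numbers were used as pairs only in alternatives, while the main fit and the exact permutation test of the ratios were unpaired. Alternatives were another pseudocount, a filter at a mean of 5 CPM, TMM scaling, limma-voom on the recovered reads, the replicate block and leaving out each library.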

Additional observations from a re-analysis of the deposited data

How the results depend on the processing

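For upd1 the log2 fold change stayed positive under all 11 alternatives (0.57 to 0.93) and for upd2 under all 10 that keep it (1.52 to 2.48); their limma adjusted p was 0.735 to 1.00, and 0 of 8 members passed under any alternative. An unadjusted limma p under 0.05 was reached by upd1 and upd2 in each of these fits. Between 84 and 560 of all 9073 genes reached it, depending on the fit. The fits share libraries, so they are not independent of each other. With a mean CPM of at least 5, 6 of 8 members remained in the test. Then 1 of 8, upd1, reached it, beside 118 of 5799 genes. With the replicate number as a block, upd1 stood at 0.74 ± 0.17 and upd2 at 2.10 ± 0.55 (log2, SE), and the block changed no call on a member; within replicate pairs the log2 difference of upd1/dome was 0.70 (exact sign-flip permutation p = 0.25, the smallest that 3 pairs allow), and that of upd1/hop was 0.76 (p = 0.5). The number of genes called was 3 with limma-voom, 0 with the replicate block and 0 to 4 on leaving out each library, with 4 without water replicate 2. For noc the call was lost with the block (limma adjusted p = 0.244) and without any library but water replicate 2 (0.053 to 0.21).

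Some values changed sign, among them Socs36E (0.42) and et (0.54), which turned without water replicate 2. With TMM scaling hop was at 0.0079 (log2). On leaving out each library hop ranged from −0.12 to 0.12, Stat92E from −0.012 to 0.12, Ptp61F from −0.053 to 0.096, Socs36E from −0.070 to 0.78, et from −0.15 to 0.90, Socs16D from −0.16 to 0.083, E(bx) from −0.029 to 0.12, Lnk from −0.023 to 0.092, BRWD3 from −0.034 to 0.051, eve from −0.16 to 0.27 and CG6023 from −0.14 to 0.24. The cause was not tested. Without water replicate 2, ftz (−1.10) and nullo (0.93) passed over all genes. The planned count models were not run; limma-voom on the recovered reads was. No promoter motif was searched. Depth limits upd3, with 1 to 11 reads per library, and upd2, with 5 to 149.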
